A study of Mus musculus with 96 samples.

Results

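The 10 genes described here are Clock, Npas2, Per1, Per2, Per3, Cry1, Cry2, Nr1d1, Nr1d2 and Dbp, which belong to the mammalian circadian clock. Every peak whose deposited gene symbol was one of these names was taken from the 6 tables of the series, which gave 16 peaks of 22815. Of these, 11 were in the table for H3K4me3 in NeuN+ nuclei, 2 in that for H3K4me3 in NeuN- nuclei and 3 in that for H3K27me3 in NeuN+ nuclei. The tables for H3K27me3 in NeuN- nuclei and for Suz12 in either fraction held 0.

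The tables come from chromatin immunoprecipitation sequencing (ChIP-seq) of sorted hippocampal nuclei from 6-month-old C57BL/6N mice kept on 12 h of light per day. The 4 genotypes were wild type (WT), Mutyh-/-, which lacks the DNA glycosylase Mutyh, Ogg1-/-, which lacks the DNA glycosylase Ogg1, and the double knockout (DKO), which lacks both. DNA glycosylases start the repair of oxidised bases. Each genotype had 3 replicates per antibody and fraction, and the hippocampi of several animals of 1 genotype were pooled for a replicate, so p-values measure the spread between pools. The hour at which tissue was taken was not given in the sources used here. NeuN is a nuclear protein of mature neurons, so NeuN+ nuclei are neuronal and NeuN- nuclei come mainly from glia.

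The circadian clock is a feedback loop of transcription. Clock, or its relative Npas2, pairs with Bmal1 and activates genes through E-boxes, and the products of the Per and Cry genes return to the nucleus and block that activation. Nr1d1 and Nr1d2 (REV-ERB alpha and beta) are nuclear receptors that repress Bmal1, and Dbp is an activator that binds D-boxes and relays the rhythm to output genes. H3K4me3 marks the start sites of active or poised genes, H3K27me3 is laid down by Polycomb repressive complex 2 (PRC2) at silenced genes, and Suz12 is a PRC2 subunit.

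Values are signal, meaning reads in a window of 401 bases scaled by a factor of the library. H3K4me3 libraries of NeuN+ nuclei held 96023 to 548706 reads in peaks, those of NeuN- nuclei 39320 to 120004, and H3K27me3 libraries of NeuN+ nuclei 23794 to 52344. Of 10 neuronal marker genes, 9 had an H3K4me3 promoter window in NeuN+ nuclei and 0 in NeuN- nuclei. Of the glial markers, 2 of 6 astrocyte and 2 of 9 oligodendrocyte genes had one in NeuN+ nuclei, against 1 of 6 and 1 of 9 in NeuN- nuclei, and microglial and vascular markers had none in either. Among the knocked-out genes, Mutyh had no window in any table, and the window at the Ogg1 promoter, at 15.4, 5.85 and 10.8 in WT and 17.9, 6.15 and 13.8 in Ogg1-/- NeuN+ libraries, was not taken as a check of the labels. In NeuN+ nuclei WT replicate 2 had the lowest H3K4me3 of the 3 WT libraries at 11 of 11 clock gene windows, as it did at 70.0% of all peaks. Ogg1-/- replicate 3 was the highest Ogg1-/- library at 11 of 11, as at 78.9% of all peaks. DKO replicate 1, which held the fewest reads in peaks, was the lowest DKO library at 8 of 11, as at 73.5% of all peaks.

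All 10 clock genes had an H3K4me3 window within 1 kb of an annotated start in NeuN+ nuclei, and Per1 had 2. Coordinates are those of GRCm38, and distances are counted on the gene's strand from the start of the transcript that the authors' annotation chose. The windows of Clock (chr5:76304230-76304630), Npas2 (chr1:39193674-39194074) and Cry1 (chr10:85184724-85185124) spanned the start itself and lay over the first exon and its untranslated region. That of Npas2 lay 598 to 198 bases upstream of the first RefSeq start of the gene. Those of Per2 (chr1:91458833-91459233), Per3 (chr4:151044163-151044563) and Nr1d2 (chr14:18238562-18238962) began 91, 102 and 49 bases downstream of their annotated starts. The windows of Cry2 (chr2:92433384-92433784), Nr1d1 (chr11:98774631-98775031) and of the main Per1 peak (chr11:69099248-69099648) began 252, 302 and 300 bases downstream, the first and last of them in an intron. The other Per1 window (chr11:69095412-69095812) lay 195 to 595 bases past an upstream start, which is 3537 to 3137 bases before the first RefSeq start of the gene. The Dbp window (chr7:45706221-45706621) was assigned to a short transcript whose start lies 483 bases past its end. Counted from the RefSeq start of Dbp, the window was 974 to 1374 bases inside the gene, over coding sequence. The Per3 window also lay within the gene Camta1, and an antisense gene, Gm7467, starts within 1 kb of the Clock window, so their shares of the signal cannot be told apart.

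Clock regulators bind short motifs, and the promoters of 9 of the 10 genes were found in RefSeq (GRCm38.p6), Per2 being the exception. Each promoter was taken from 250 bases before to 50 bases after a start and searched on both strands for the E-box (CACGTG), an E-box-like motif (CACGTT), the D-box (TTATGTAA, TTATGCAA or TTACGTAA), the cAMP response element (TGACGTCA) and the core of the ROR and REV-ERB element (TAGGTCA or TGGGTCA). None of these overlapped another in the promoters shown. The E-box was in the promoters of Cry1 and Per1, against 7.15% of the 32851 promoters in the table, the E-box-like motif in those of Cry1, Cry2 and Nr1d1, against 4.68%, and the D-box in those of Per1 and Per3, against 1.78%. The last 2 motifs were in 0 of the 9, against 1.79% and 6.45% of all promoters. The 9 genes had 12 promoters and a gene counted if any of its own matched, whereas the shares of all promoters count each promoter. The 250 bases upstream of the RefSeq start are shown 5′ to 3′ for the 3 members with 2 matches each, with the matches in capitals. Cry1 (chr10:85185055-85185304, minus strand) has the E-box-like motif followed by the E-box, Per1 (chr11:69098699-69098948, plus strand) an E-box and a D-box, and Per3 (chr4:151044666-151044915, minus strand) a pair of D-boxes.
Cry1: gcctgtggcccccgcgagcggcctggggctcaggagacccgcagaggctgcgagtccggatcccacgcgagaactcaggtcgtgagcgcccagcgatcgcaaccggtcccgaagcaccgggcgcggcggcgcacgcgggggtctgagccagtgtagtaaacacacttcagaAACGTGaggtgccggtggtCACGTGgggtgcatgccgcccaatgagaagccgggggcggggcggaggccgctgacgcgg
Per1: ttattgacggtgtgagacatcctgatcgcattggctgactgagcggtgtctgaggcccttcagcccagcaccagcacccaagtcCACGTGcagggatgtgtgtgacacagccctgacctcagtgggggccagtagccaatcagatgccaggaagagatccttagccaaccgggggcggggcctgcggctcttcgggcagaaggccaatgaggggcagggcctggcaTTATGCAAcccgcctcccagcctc
Per3: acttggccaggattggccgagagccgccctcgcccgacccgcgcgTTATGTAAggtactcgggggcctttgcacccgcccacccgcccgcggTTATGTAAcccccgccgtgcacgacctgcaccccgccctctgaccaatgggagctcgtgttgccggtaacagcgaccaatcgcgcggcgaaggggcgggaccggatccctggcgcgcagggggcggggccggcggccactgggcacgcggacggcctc

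Within the NeuN+ windows themselves, the E-box lay in those of Cry1 and Nr1d2, the E-box-like motif in that of Cry2 and the D-box in those of Per2 and Nr1d2. Of all 12628 windows in that table, 7.78% held the E-box, 7.09% the E-box-like motif and 0.705% the D-box. The Cry1 E-box, the one in the promoter above, began 50 bases before the annotated start, at the upstream edge of the window. The pair in Nr1d2 began 333 and 436 bases downstream of its start and had the D-box between them. These sites are shown with 10 bases on each side, on the gene's strand, as the matches that fall inside measured H3K4me3 windows.
Cry1 E-box (chr10:85185099-85185124): tgccggtggtCACGTGgggtgcatgc
Nr1d2 first E-box (chr14:18238663-18238688): ccgcactggcCACGTGcacggtgtgt
Nr1d2 D-box (chr14:18238593-18238620): tgacgcagcaTTACATAAtgcgagctgg
Nr1d2 second E-box (chr14:18238560-18238585): cgggcggagaCACGTGaggccgcggg
Cry2 E-box-like motif (chr2:92433411-92433436): ttcacagacaAACGTGgtggtgatca
Per2 D-box (chr1:91459085-91459112): cgtggtcgtcTTACGTAAccggcggctc

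**Figure D1:**
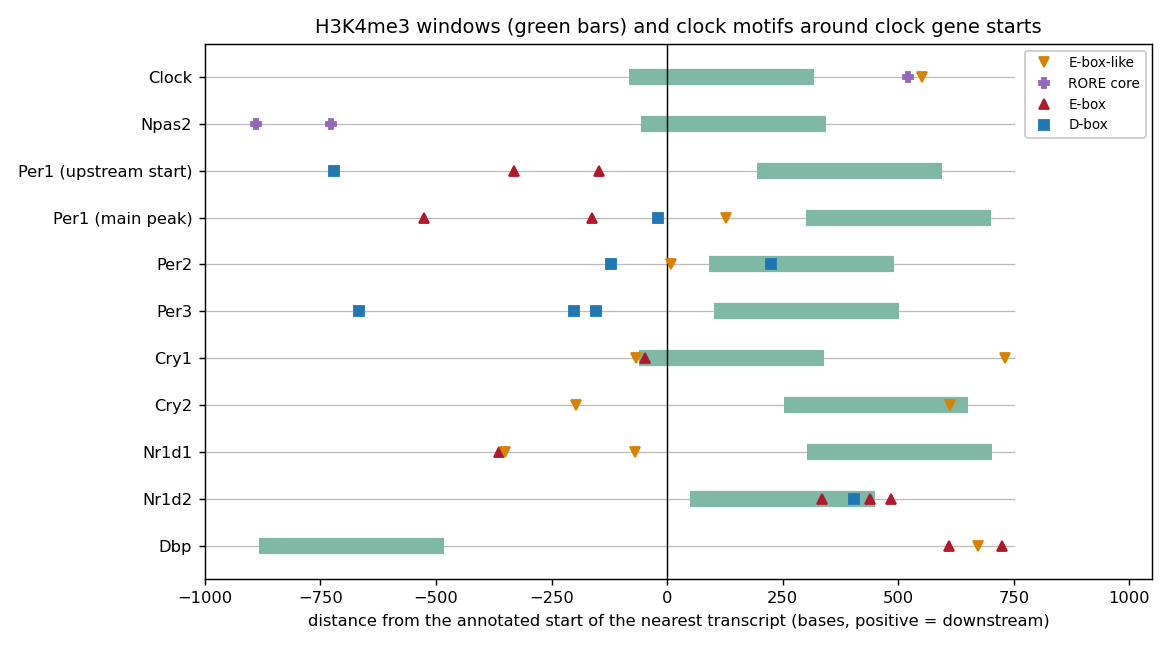
Position of each of the 11 NeuN+ H3K4me3 windows (green bars, 401 bases) and of the motifs found on either strand, in bases from the annotated start of the nearest transcript (black line), with positive distances downstream. Grey lines span the stretch searched. Most motifs lie outside the windows, and those inside are the Cry1 E-box, 1 E-box-like motif in Cry2, 1 D-box in Per2, and 2 E-boxes and 1 D-box in Nr1d2.

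H3K4me3 in NeuN+ nuclei differed in level among the clock genes, with Clock, Nr1d1 and Cry1 at the high end and Per1 at the low end. Over the 12 libraries the mean signal was 33.5 ± 12.1 (SD, n = 12) at Clock, 32.2 ± 14.6 at Nr1d1, 31.1 ± 11.0 at Cry1, 29.4 ± 9.06 at Npas2 and 28.5 ± 8.45 at Per2. It was 28.5 ± 6.97 at Cry2, 25.6 ± 8.75 at Per3, 23.0 ± 9.10 at Nr1d2 and 21.4 ± 5.48 at Dbp. The main Per1 window had 20.1 ± 7.68 and the upstream one 14.8 ± 6.05. The median of all 11771 promoter windows was 24.3, with quartiles of 18.1 and 29.7. Clock was thus above 89.7% of promoter windows, Nr1d1 above 85.3% and Cry1 above 80.8%, whereas Dbp was above 37.5% and the main Per1 window above 32.4%. Neighbours in this order did not differ beyond their spread: each step between consecutive genes was at most 2.91, and the SD of the difference between them over the libraries was at least 5.86. The largest gap was between the Per1 windows, 5.26, where the main one was higher in 10 of 12 libraries and the SD of the difference was 6.91. The single highest clock gene window of a library was Clock in 4 libraries, Nr1d1 in 3, Cry1 in 2 and Npas2, Per2 and Per3 in 1 each, and the upstream Per1 window was the lowest in 9 of 12.

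**Figure D2:**
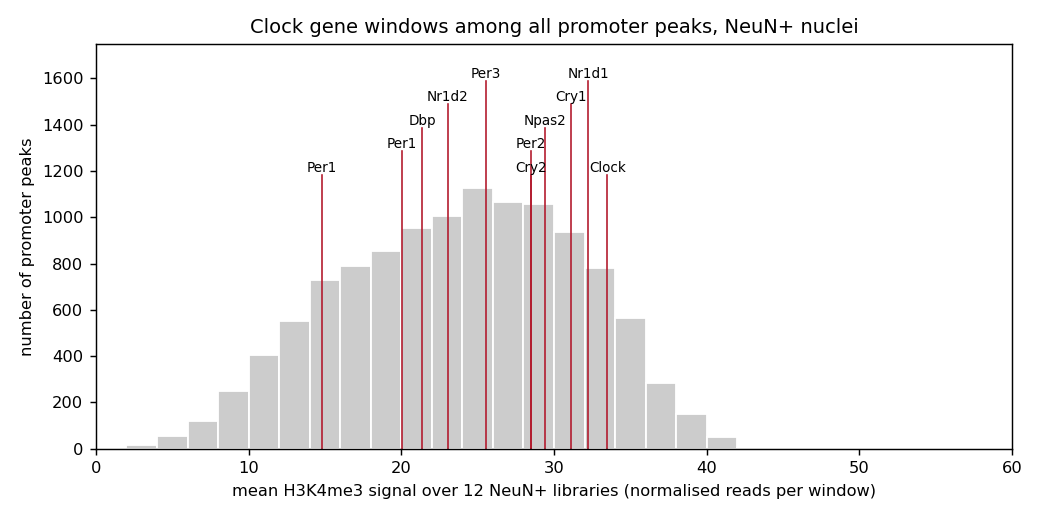
Mean H3K4me3 signal over the 12 NeuN+ libraries (horizontal axis, normalised reads per 401-base window) for all promoter peaks (grey bars, number of peaks per bin, with the 4 peaks above 60 left out) and for the 11 clock gene windows (red lines). Clock, Nr1d1 and Cry1 lie in the upper part of the distribution, at 33.5, 32.2 and 31.1, and the upstream Per1 window in its lower part, at 14.8.

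Base composition of the windows differed widely among the genes. The windows of Clock, Npas2, Cry1 and Nr1d2 were rich in CpG, with 55, 58, 62 and 49 CpG dinucleotides and 79.1%, 77.8%, 75.8% and 71.3% GC. Per2, with 37 CpG, was near the promoter median of 35 CpG, and Per3, with 26, was near the lower quartile of 25. The GC content of both, 63.3% and 62.8%, was below the promoter median of 67.1%. Nr1d1, with the second highest signal, had 7 CpG and 52.1% GC, and 1.58% of promoter windows had fewer CpG. Cry2 had 16 CpG, Dbp 10, and the main and upstream Per1 windows 13 and 14.

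Whether loss of the glycosylases altered H3K4me3 at these promoters was then asked by fitting limma to log2(signal + 1) over all peaks, with 12 libraries in 1 fit. A peak was called when its unadjusted p was under 0.05 and its log2 fold change against WT over 0.5 in size, the rule of the study for a differentially enriched region. In NeuN+ nuclei 0 of the 33 tests of the 11 clock gene windows were called. Over all peaks the share called was 0.911% for Mutyh-/-, 0.966% for Ogg1-/- and 1.46% for DKO. A count of 0 among 33 is close to that background, and edgeR and DESeq2 also gave 0. After adjustment over the 12628 peaks with the Benjamini-Hochberg method, 0.0% of all peaks passed in each of the 3 contrasts, and the smallest adjusted p of a clock gene was 1.00. In 0 of 33 tests did the 3 libraries of 1 group all lie above the 3 of the other, which happened at 5.77%, 3.68% and 5.02% of all peaks for Mutyh-/-, Ogg1-/- and DKO. No clock gene window had an unadjusted p under 0.05, and the smallest was 0.218. The median log2 fold change of the 11 windows was -0.06 for Mutyh-/-, -0.16 for Ogg1-/- and -0.07 for DKO, beside -0.07, 0.08 and -0.02 over all peaks. The standard errors of single windows ranged from 0.40 at Cry2 to 0.63 at the upstream Per1 window, and the 95% interval of the DKO value was -0.31 to 1.30 at the former and -1.04 to 1.51 at the latter.

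**Figure D3:**
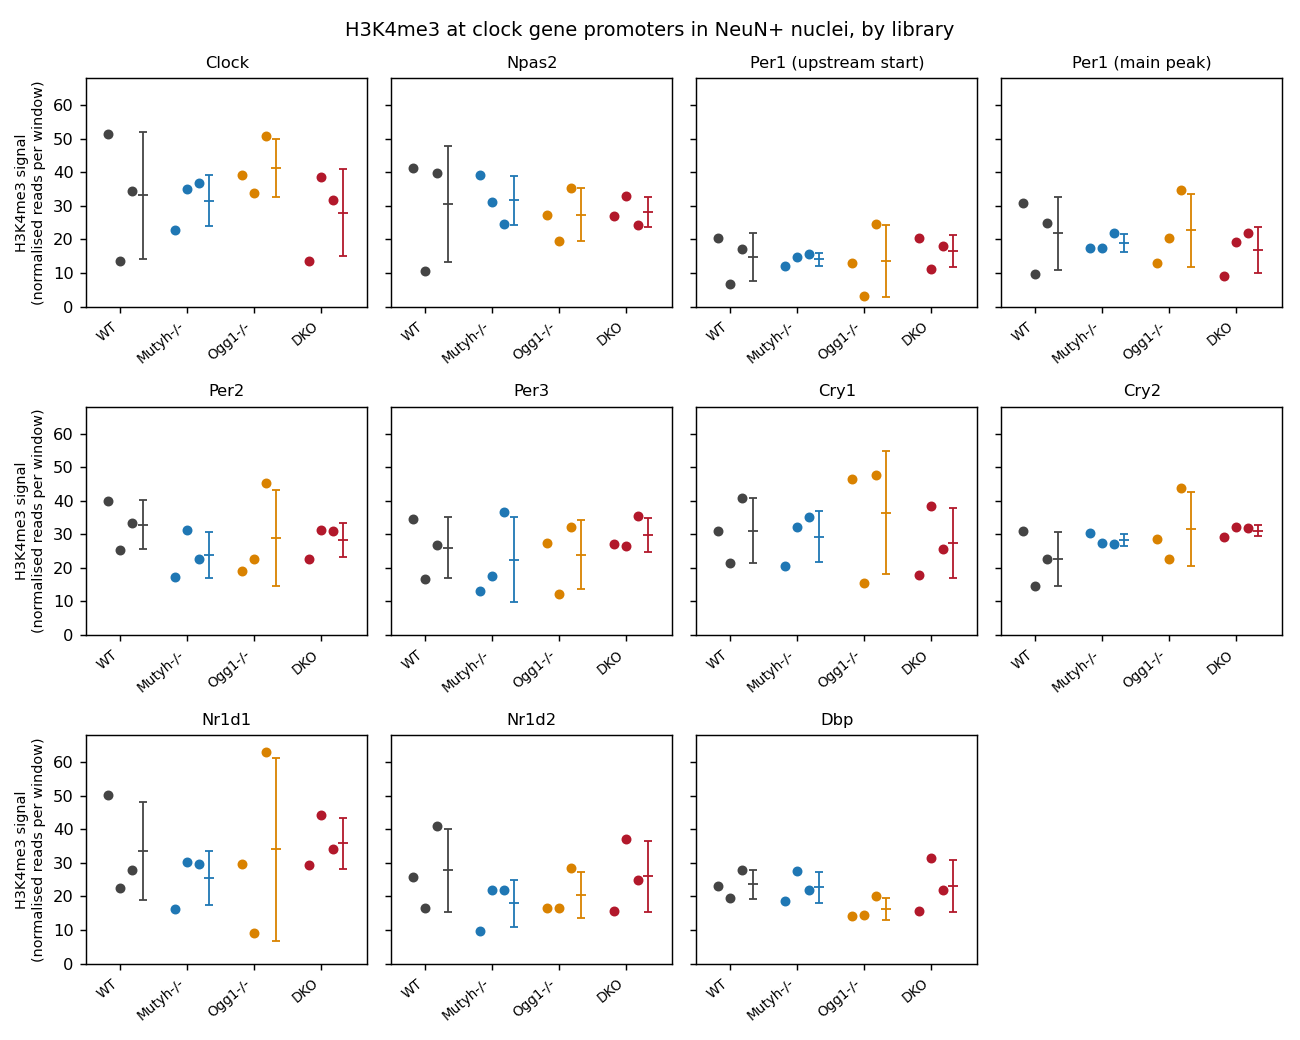
H3K4me3 signal (vertical axis, normalised reads per 401-base window) in each NeuN+ library at the 11 clock gene windows, in 4 genotypes (points, 3 libraries each in the order of their replicate numbers, with the mean and SD beside them). The knockout libraries overlap the WT libraries in every panel, and WT replicate 2, the middle WT point, is the lowest WT library throughout.

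Clock and Npas2 are the activators of the loop. Clock signal was 51.5, 13.7 and 34.5 in the WT libraries and 39.3, 33.9 and 50.8 in Ogg1-/-, with 22.9, 34.9 and 36.8 in Mutyh-/- and 13.5, 38.6 and 31.8 in DKO. The WT libraries thus differed more among themselves than the genotype means, which were 33.2 ± 18.9 in WT and 41.3 ± 8.63 in Ogg1-/- (SD, n = 3). The log2 fold change for Ogg1-/- was 0.47 ± 0.44 (SE), and it was -0.05 without WT replicate 2. Npas2, which can stand in for Clock in the forebrain, had 41.2, 10.7 and 39.8 in WT, 39.2, 31.2 and 24.5 in Mutyh-/-, 27.4, 19.5 and 35.4 in Ogg1-/- and 27.1, 33.0 and 24.3 in DKO. Its log2 fold changes lay between 0.02 and 0.24, and without WT replicate 2 they lay between -0.59 and -0.37. They kept their sign in 10 of 10 other settings for Mutyh-/-, 5 of 10 for Ogg1-/- and 7 of 10 for DKO.

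The Period genes encode repressors of Clock and Bmal1. At the main Per1 window WT libraries had 30.9, 9.76 and 24.8, those of Mutyh-/- 17.4, 17.5 and 21.9, those of Ogg1-/- 13.1, 20.5 and 34.6 and those of DKO 9.02, 19.3 and 22.0. DKO replicate 1, at 4 reads, was the lowest of the 12 there, and the log2 fold change was -0.31 ± 0.51 (SE). The upstream Per1 window ranged from 3.08 to 24.6, both in Ogg1-/- libraries, and its log2 fold changes were 0.05, -0.36 and 0.23 for Mutyh-/-, Ogg1-/- and DKO, each with a standard error of 0.63. Per2 had 39.9, 25.4 and 33.4 in WT and 17.4, 31.2 and 22.8 in Mutyh-/-. It had 19.0, 22.6 and 45.4 in Ogg1-/- and 22.6, 31.4 and 31.1 in DKO. All 3 knockout means of Per2 were below the WT mean of 32.9, with log2 fold changes of -0.46, -0.25 and -0.20 and a standard error of 0.41. Per3 had 34.7, 16.6 and 26.9 in WT, 13.1, 17.5 and 36.8 in Mutyh-/-, 27.4, 12.3 and 32.3 in Ogg1-/- and 27.1, 26.5 and 35.6 in DKO, and its groups overlapped throughout.

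The Cryptochrome genes encode the partners of the Period proteins. Cry1 in NeuN+ nuclei had 30.9, 21.5 and 40.9 in WT, 20.7, 32.2 and 35.0 in Mutyh-/-, 46.4, 15.4 and 47.7 in Ogg1-/- and 18.0, 38.6 and 25.8 in DKO. Its log2 fold changes were -0.07, 0.11 and -0.19 with a standard error of 0.44, so the difference between the lowest and the highest Ogg1-/- library was far larger than any between genotype means. Cry2 had 30.9, 14.6 and 22.6 in WT, 30.5, 27.6 and 27.2 in Mutyh-/-, 28.6, 22.6 and 43.8 in Ogg1-/- and 29.3, 32.2 and 31.8 in DKO. Its log2 fold changes were 0.37, 0.47 and 0.50 with a standard error of 0.40, and two-sided exact permutation tests gave p = 0.4, 0.5 and 0.2, where 0.1 is the smallest that 3 against 3 libraries allow. The 3 comparisons share the WT libraries, and without WT replicate 2 the values were 0.10, 0.20 and 0.23. The values of Cry2 were above 0, and those of Per2 below 0, for all 3 knockouts in 10 of 10 other settings. They kept these signs in 12 of 12 fits with a library left out. All these fits reuse the same libraries, so a kept sign is no independent support. Single contrasts at Nr1d1, Nr1d2 and Dbp kept their sign throughout as well. The highest WT library of Cry2, at 30.9, lay within the DKO range.

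The REV-ERB genes encode the repressors of the second loop. Nr1d1 had 50.2, 22.4 and 28.0 in WT, 16.3, 30.3 and 29.8 in Mutyh-/-, 29.8, 9.23 and 63.1 in Ogg1-/- and 29.3, 44.2 and 34.1 in DKO. The Ogg1-/- libraries alone spanned a signal of 9.23 to 63.1, the widest range of any of the 11 windows within a genotype. Nr1d2 had 25.7, 16.6 and 40.9 in WT and 9.81, 22.1 and 21.9 in Mutyh-/-. Its value for Mutyh-/-, -0.60 ± 0.47 (SE) on the log2 scale, was the largest difference from WT among the 33 (exact permutation p = 0.4). In Ogg1-/- it had 16.7, 16.4 and 28.5, and in DKO 15.8, 37.0 and 25.0. Dbp, the output activator, had 23.2, 19.5 and 28.0 in WT, 18.5, 27.6 and 21.9 in Mutyh-/-, 14.3, 14.4 and 20.0 in Ogg1-/- and 15.8, 31.4 and 22.0 in DKO. The highest Ogg1-/- library of Dbp lay just above the lowest WT library, and the log2 fold change was -0.51 ± 0.44 (SE, exact permutation p = 0.2).

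**Figure D4:**
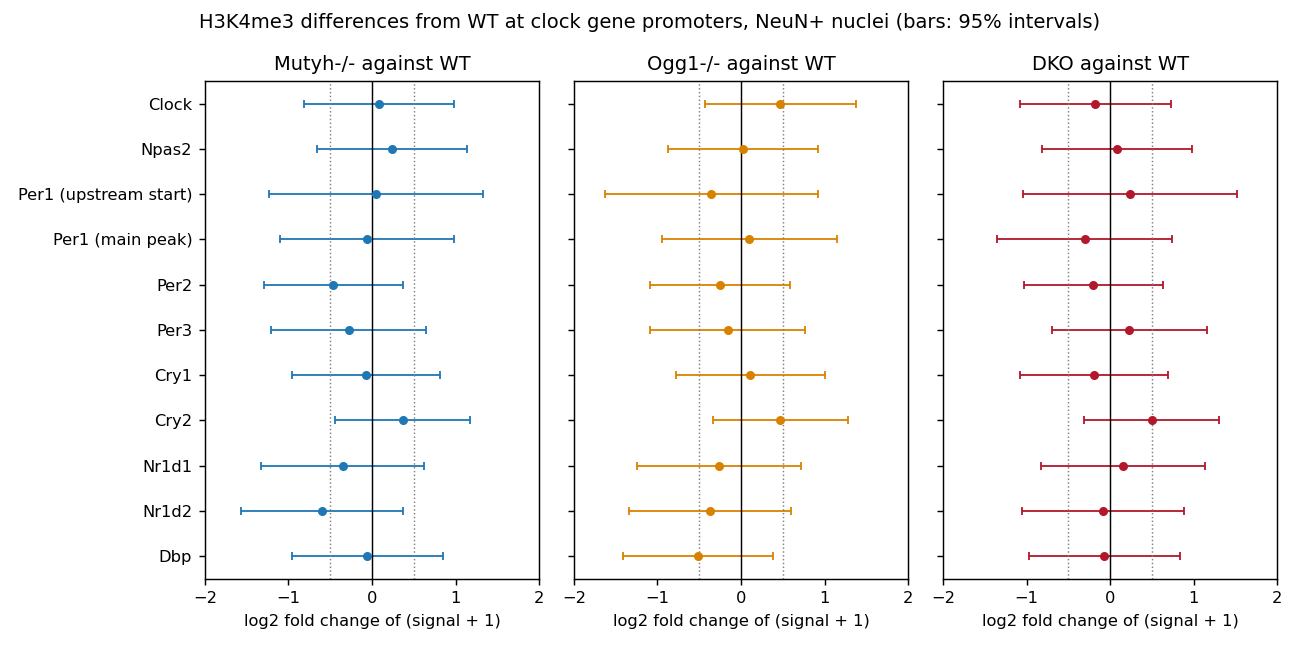
Log2 fold change of (H3K4me3 signal + 1) against WT in NeuN+ nuclei (points, from limma) with 95% intervals (bars) for the 11 clock gene windows in the 3 knockouts; dotted lines mark 0.5 in either direction. All 33 intervals include 0, with Cry2 and Npas2 to the right of 0 and Per2 and Nr1d2 to its left in each panel.

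The 4 genotypes also allow a test of whether the DKO differs from the sum of the single knockouts. In NeuN+ nuclei 0 of 11 clock gene windows were called for H3K4me3, where 0.839% of all peaks were. The smallest p was 0.196, at Nr1d2, where the DKO stood 0.89 ± 0.67 (SE) above the sum on the log2 scale. In NeuN- nuclei 0 of 2 were called, where 3.03% of all peaks were, and for H3K27me3 in NeuN+ nuclei 0 of 3, where 3.92% were.

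In NeuN- nuclei only the promoters of Clock and Cry1, of the 10 genes, had an H3K4me3 window. That is 20.0% of the clock genes with a promoter window in NeuN+ nuclei, and 26.0% of the 11160 genes with one there had one in NeuN- nuclei too. The NeuN- window of Clock (chr5:76304209-76304609) shared 380 bases with that of NeuN+ nuclei. The NeuN- window of Cry1 (chr10:85184545-85184945) shared 222 bases and lay 119 to 519 bases downstream of the start, past the E-box shown above. Cry1, at a mean of 13.3, was above 91.0% of NeuN- promoter windows, and Clock, at 11.5, above 71.8%. Tables of the fractions were scaled separately, so the values were not compared between fractions.

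Cry1 in NeuN- nuclei was the one clock gene window called in any table. Its signal was 20.7, 20.5 and 7.09 in WT (15, 26 and 6 reads), 22.8, 25.9 and 8.13 in Mutyh-/-, 20.8, 7.18 and 5.68 in Ogg1-/- and 14.9, 5.72 and 0.0 in DKO (16, 8 and 0 reads). DKO thus held the lowest library and its highest library lay above the lowest WT one, so the groups overlapped. The 0 reads of DKO replicate 3 allow a signal of up to 3.35 (3 reads, counting error only). The log2 fold change for DKO was -1.72 ± 0.79 (SE), with a 95% interval of -3.28 to -0.15. The unadjusted limma p behind the call was 0.0324, while an exact permutation test of the same 6 libraries gave p = 0.2. The share of all peaks called was 2.94% for Mutyh-/-, 3.36% for Ogg1-/- and 2.29% for DKO. The adjusted p of Cry1 over the 3270 peaks was 0.999, whereas 0.122%, 0.0612% and 0.0306% of all peaks passed that adjustment for Mutyh-/-, Ogg1-/- and DKO. Without DKO replicate 3 the log2 fold change was -0.59 and the window was not called. The call was also lost without WT replicate 1 and without WT replicate 2, each at -1.48.

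Clock was also lowest in that library, and it was not called. It had 19.4, 7.09 and 15.4 in WT, 17.1, 8.64 and 9.75 in Mutyh-/-, 17.8, 9.58 and 14.2 in Ogg1-/- and 13.9, 4.29 and 1.12 in DKO, the last from 1 read. The log2 fold change for DKO was -1.34 ± 0.74 (SE), with a 95% interval of -2.82 to 0.15 and an exact permutation p = 0.2. DKO replicate 3 thus held 1 read in both windows together, whereas the other 11 libraries held 11 to 42. In that library 8.56% of all NeuN- windows had 0 reads, against 2.08% to 13.8% in the other libraries, and its most covered window took 57.0% of the reads, against 25.4% to 59.3%. The high place of DKO replicate 1 was not particular to these genes, since it was the highest DKO library at 82.8% of all NeuN- windows. Replicate 3, the lowest DKO library at both genes, was the lowest at 44.1% of all NeuN- windows, and replicate 2 at 50.3%. The median promoter window had 15.8, 5.72 and 6.70 in DKO replicates 1 to 3, and 11.1, 8.67 and 5.91 in those of WT. In the same libraries the astrocyte gene Slc1a2 had 2.36 to 11.0 in WT and 4.47 to 11.1 in DKO, and the oligodendrocyte gene Olig1 3.55 to 7.09 and 4.29 to 8.36. These are the only glial markers of 15 with a window, those of microglia and vessels had none, and the part of cell composition in the result was not tested. In sorted bulk nuclei, fewer nuclei of a type and less H3K4me3 per nucleus cannot be told apart. In NeuN+ nuclei the DKO values for the same genes were -0.18 ± 0.44 for Clock and -0.19 ± 0.44 for Cry1 (log2 fold change and SE), and the difference between fractions was not tested.

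**Figure D5:**
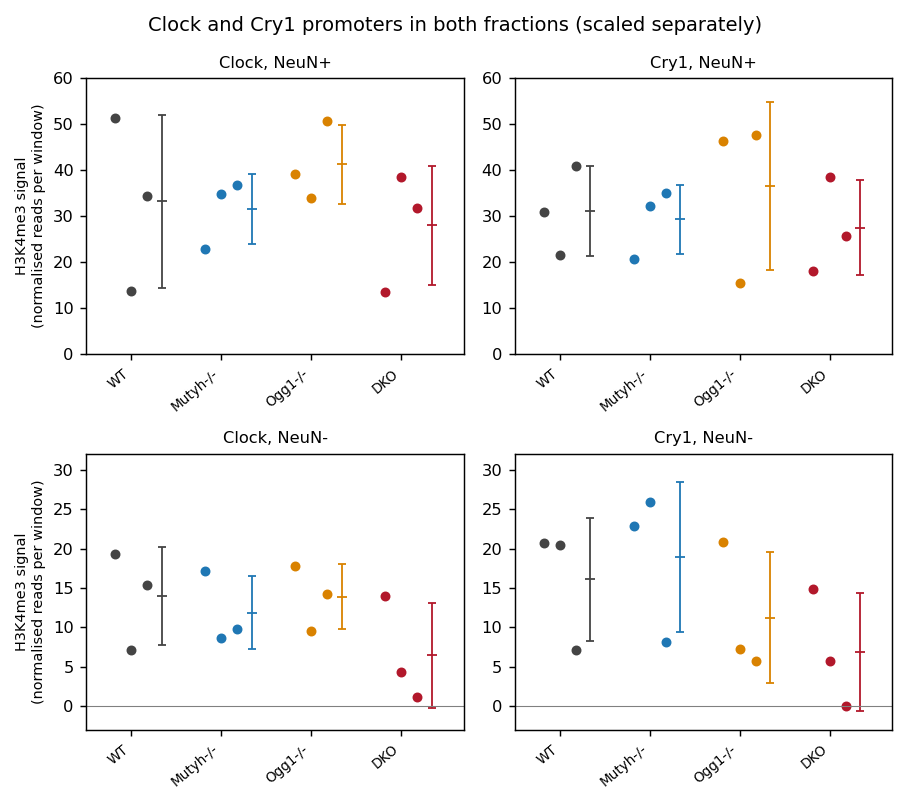
H3K4me3 signal (vertical axes, normalised reads per 401-base window, on scales that differ between fractions) of Clock and Cry1 in each library of NeuN+ nuclei (upper panels) and NeuN- nuclei (lower panels), in 4 genotypes (points, 3 libraries each, with the mean and SD beside them). In NeuN- nuclei DKO replicate 3, the last point, is at 1.12 for Clock and 0.0 for Cry1, and DKO replicate 1, at 13.9 and 14.9, is within the WT range. DKO replicate 1 is also the highest DKO library at 82.8% of all NeuN- windows.

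H3K27me3 and Suz12 gave no window at the start of any of the 10 genes. The 3 H3K27me3 windows that carry the name Cry1 in NeuN+ nuclei lay 44105, 56875 and 80467 bases upstream of its start (chr10:85229169-85229569, chr10:85241939-85242339 and chr10:85265531-85265931). None overlapped Cry1, and all 3 lay within the noncoding gene Gm38575. They had 2, 5 and 2 CpG, and 71.1% of the bases of the third were repeat-masked. The first had 3.29, 0.0 and 10.3 in WT, 6.09, 9.95 and 4.00 in Mutyh-/-, 1.98, 3.14 and 4.11 in Ogg1-/- and 9.83, 4.85 and 7.22 in DKO. These values stand on 0 to 12 reads, and the groups overlapped. The second had 7.67, 0.0 and 0.0 in WT, 0.0, 15.5 and 5.99 in Mutyh-/-, 0.991, 0.0 and 1.03 in Ogg1-/- and 4.37, 0.969 and 3.21 in DKO, so that 4 of the 12 libraries were listed at 0. The third ranged from 0.0 to 10.7, with both ends in knockout libraries. Of the 9 tests of the 3 windows, 0 were called, where 3.78%, 3.82% and 3.36% of all peaks were for Mutyh-/-, Ogg1-/- and DKO, and 0.121%, 0.0484% and 0.0% passed adjustment over 4132 peaks. The second window was called for Mutyh-/- where WT replicate 1 or Mutyh-/- replicate 1 was left out, at 2.28 and 2.39, from 1.24 with all libraries. The nearest H3K27me3 window to a start of the other 9 genes in NeuN+ nuclei was 58995 bases away for Clock, 105063 for Per2, 161931 for Dbp and 171371 for Nr1d1, and at least 653851 for the other 5. The nearest Suz12 window in NeuN+ nuclei lay 104512 bases from Per2 and farther from the others.

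Genes around the core were read from a list of 19 that includes Bmal1, the PAR bZIP factors, the casein kinases and the F-box proteins that set the life of Per and Cry. In NeuN+ nuclei the list had 22 H3K4me3 windows. Of their 66 tests 0 were called, where 0.911%, 0.966% and 1.46% of all peaks were for Mutyh-/-, Ogg1-/- and DKO. Their median log2 fold changes were -0.03, 0.12 and 0.04, beside -0.07, 0.08 and -0.02 over all peaks. Bmal1, the partner of Clock, is named here after its values were seen. It had 39.9, 29.3 and 38.8 in WT and 2.26, 42.6 and 30.3 in DKO, where replicate 1 had 1 read, and the log2 fold change was -1.16 ± 0.60 (SE, not called, exact permutation p = 0.7). DKO replicate 1 had the fewest reads of the NeuN+ libraries and was the lowest DKO library at 73.5% of all peaks. In NeuN- nuclei 7 of the 19 had a window, Bmal1 among them. That is 38.9% of the 18 with a promoter window in NeuN+ nuclei, beside 26.0% of all genes with one there. Clock, Bmal1 and Cry1 thus had a window in both fractions, while Npas2, Cry2, Nr1d1, Nr1d2, Dbp and the Per genes had none in NeuN- nuclei. NeuN- nuclei gave 3270 H3K4me3 windows against 12628 in NeuN+ nuclei. Only 1 of 6 astrocyte and 1 of 9 oligodendrocyte markers had one in NeuN- nuclei, so a missing window there cannot be read as absence of the mark. Of 21 tests of the 7 windows 1 was called, a share close to the 2.94%, 3.36% and 2.29% of all NeuN- peaks called for Mutyh-/-, Ogg1-/- and DKO. The call was at Csnk1d, which encodes the casein kinase 1 delta that phosphorylates Per proteins. Csnk1d had 2.77, 7.09 and 2.36 in WT and 17.1, 13.0 and 19.5 in Mutyh-/-, so every Mutyh-/- library was above every WT one. The log2 fold change was 1.89 ± 0.81 (SE), with an adjusted p of 1.00 by limma and an exact permutation p = 0.1, the smallest possible. Without WT replicate 3, Mutyh-/- replicate 1 or Mutyh-/- replicate 3 it was 1.65, 1.85 and 1.77, and the window was not called. The NeuN+ value of Csnk1d for Mutyh-/- was 0.19 ± 0.42. The single H3K27me3 window of the list lay 94083 bases upstream of Nfil3, a repressor at D-boxes (chr13:53075156-53075556). It was called for Ogg1-/-, as were 3.82% of all H3K27me3 peaks in NeuN+ nuclei. It had 5.48, 7.75 and 7.76 in WT and 0.0, 2.09 and 2.06 in Ogg1-/-, on at most 9 reads. The log2 fold change was -1.91 ± 0.94 (SE), with an adjusted p of 0.983 by limma and an exact permutation p = 0.1. The call was lost without any 1 of the 3 WT libraries, where the value was -2.05, -1.83 and -1.83, and without Ogg1-/- replicate 1, where it was -1.37. It was lost in 8 of 21 alternatives in all.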

How the data were processed

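H3K4me3, H3K27me3 and Suz12 were measured by ChIP-seq in NeuN+ and NeuN- hippocampal nuclei of 4 genotypes, with 3 replicates per group (72 libraries in 6 tables). The 24 input samples were not used here. The authors aligned reads to GRCm38/mm10 with Bowtie2 2.3.5.1, called peaks with epic2 (SICER in the submitters' notes), kept consensus peaks found in at least 2 of 3 replicates, counted reads with DiffBind 3.10.1 and named each peak for its closest gene with ChIPseeker 1.36. How duplicate reads were treated was not given in the sources used here. The deposited signal gives, for a peak of 401 bases, its read count over a scaling factor that differs between libraries. In every column 100% of the values were whole multiples of 1 step within a tolerance of 0.01, and reads were recovered from that step. The tables of the fractions were scaled separately.

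Groups were taken from the deposited labels. The main test was limma 3.58.1 (R 4.3.3) with a trended prior on log2(signal + 1), with a term for genotype and all 12 libraries of a table in 1 fit, in place of the authors' edgeR test. Its 95% intervals and p-values used the residual degrees of freedom plus the prior ones. Calls followed the study's rule, and p-values were also adjusted with the Benjamini-Hochberg method over all peaks of a table. Exact two-sided permutation tests of single windows, on the same log2 scale, were added after the values were seen. The non-additive test was DKO minus both single knockouts plus WT. The clock genes, the list of 19 other clock genes and the markers were chosen with earlier results of these data known. A gene of the second list is not reported here. All member windows were described, and Arntl and Arntl2 were found in the tables as Bmal1 and Bmal2 by gene ID. Alternatives were pseudocounts of 0.5 and 4, a filter on a mean signal of at least 10, edgeR 4.0.16 and DESeq2 1.42.0 on the recovered reads, limma after TMM scaling, fits of only 2 genotypes, the replicate block, and each library left out in turn. The fitting script was tested on simulated data. Positions came from GENCODE vM21 and promoters from RefSeq, both on GRCm38.p6. The limma intervals cover the spread between libraries, and the floor of 3 reads covers counting error only, since reads carry no molecular identifiers.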

Additional observations from a re-analysis of the deposited data

How the results depend on the processing

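The count of called clock gene windows for H3K4me3 in NeuN+ nuclei was 0 in 22 of 22 alternatives, and no clock gene window of any table had an adjusted p under 0.05 in any alternative. The DKO difference of Cry1 in NeuN- nuclei stayed below 0 in 22 of 22 alternatives, from -2.05 to -1.07 among the settings and from -2.59 to -0.59 with a library left out. It missed the threshold with a pseudocount of 4 (-1.07) and with edgeR and the deposited factors (-1.20), as it did without WT replicate 1, WT replicate 2 or DKO replicate 3. The count of called clock gene windows in NeuN- nuclei was 1, and it was 0 with a pseudocount of 4 and with edgeR and the deposited factors. It was 2, with Clock added, under edgeR with TMM factors, DESeq2, limma after TMM scaling and the replicate block, and 0 to 2 with a library left out.

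The non-additive count for clock genes in NeuN+ nuclei was 0, and 1 under edgeR with TMM factors, at Nr1d2 (0.99). It was 0 to 1 with a library left out, in NeuN+ nuclei (Nr1d1 at 1.39 without Ogg1-/- replicate 3) and in NeuN- nuclei (Cry1 at -2.24 without DKO replicate 1). The H3K27me3 windows named Cry1 gave 0 calls, and 0 to 1 with a library left out. Of the other clock genes, the NeuN+ H3K4me3 count was 0, and 1 under limma after TMM scaling and with the replicate block, and 0 to 1 with a library left out. The NeuN- count was 1, and 2 under edgeR with TMM factors, 3 under DESeq2 and 0 to 3 with a library left out. The H3K27me3 count was 1, and 0 with a pseudocount of 4, with edgeR under either scaling and with only 2 genotypes, and 0 to 1 with a library left out.

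Window by window, knockout and WT libraries with the same replicate number did not deviate together (correlations of -0.10 to 0.12). Such correlations cannot see a shift shared by whole libraries. For H3K4me3 in NeuN- nuclei replicate 1 was most often the highest library in each genotype. It was so at 52.3% of all peaks in WT, 58.7% in Mutyh-/-, 64.9% in Ogg1-/- and 82.8% in DKO. The labels do not say that the numbers pair samples, so the replicate block was kept as an alternative. With the replicate block the value of Cry1 in NeuN- nuclei was -1.72 and the window was called, and the counts of called clock gene windows were 0 in NeuN+ nuclei, 2 in NeuN- nuclei and 0 for H3K27me3. No H3K27me3 window of a clock gene had a mean signal of at least 10, so that filter gave no value. A fit of 2 genotypes cannot hold the non-additive term. Depth limits the NeuN- and H3K27me3 windows most, where medians were 4 to 16 and 3 to 9 reads per peak.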

Other observations

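The 11 clock gene windows together held 0.0771% to 0.111% of the reads in peaks of each NeuN+ H3K4me3 library. The mean share was 0.0983% ± 0.0184 in WT, 0.0954% ± 0.00898 in Mutyh-/-, 0.0929% ± 0.00709 in Ogg1-/- and 0.0999% ± 0.00616 in DKO (SD, n = 3), and the knockout means all lay within the spread of WT.

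Bmal1, which was named after its values were seen, had an H3K4me3 signal in NeuN- nuclei of 16.6, 10.2 and 0.0 in WT, 20.0, 6.91 and 19.5 in Mutyh-/-, 15.8, 11.2 and 11.4 in Ogg1-/- and 16.7, 5.00 and 4.47 in DKO. The log2 fold changes of Bmal1 were 1.37, 1.23 and 0.52 with a standard error of 0.83, and none of them was called. WT replicate 3, at 0 reads, was the lowest of the 12 libraries.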
